A study of Mus musculus with 50 samples.

Results

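The 10 genes described here encode the main steps of prostaglandin E2 and extracellular adenosine signaling: Ptgs1, Ptgs2, Ptges, Ptger2, Ptger4 and Hpgd for prostaglandin E2, and Entpd1, Nt5e, Adora2a and Adora2b for adenosine. They were taken by name, as the rows of the count table whose Ensembl identifiers carry these symbols, and the rule used no measured value. The list of names itself was chosen with earlier results of these data known. All 10 were found among 37469 gene identifiers, and all 10 passed the low-count filter that left 19327 genes for testing. They were followed in 48 mouse sarcomas profiled by bulk RNA sequencing and in 2 further libraries from the sarcoma line 402230.

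Prostaglandin E2 is made from arachidonic acid by the cyclooxygenases Ptgs1 and Ptgs2 and then by the terminal synthase Ptges. It acts on immune cells mostly through the receptors Ptger2 and Ptger4, which raise cyclic AMP, and it is inactivated by the dehydrogenase Hpgd. Adenosine is made outside cells from ATP by Entpd1 (CD39), which removes phosphates to give AMP, and by Nt5e (CD73), which converts AMP to adenosine. The receptors Adora2a and Adora2b also raise cyclic AMP, and both pathways are known to restrain T cells and natural killer cells in tumors.

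All mice were of the 129/SvJae strain. Primary p53/MCA sarcomas had been induced in p53FL/FL mice aged 6 to 10 weeks by Adeno-Cre delivered to the gastrocnemius muscle followed by 300 µg of the carcinogen MCA (3-methylcholanthrene), so each primary tumor arose separately. Transplant tumors, named Allograft in the labels, had been grown in the gastrocnemius of syngeneic mice from 50000 cells of line 402230, which came from an untreated primary tumor. Every comparison of the models is therefore a comparison of 1 line with many separate tumors. Tumors of about 150 mm3 received 0 Gy or 20 Gy and 200 µg of either an isotype control antibody or muDX400, an antibody against PD-1, and were harvested 3 days later. The 8 resulting groups held 8 tumors each for the primary model and 4 each for the transplant model, 32 and 16 in all. Untreated below means 0 Gy with the isotype antibody.

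The promoter windows of Ptgs2, Ptger2, Adora2b and Ptgs1 are shown first because these 4 members were called both between the models and after radiation in primary tumors, as described below. Each window runs from 250 bases before to 50 bases from the RefSeq start of transcription on, in build GRCm38.p6 and on the plus strand. Windows were found for 9 of the 10 members, and not for Adora2a. Capitals mark matches, on either strand, to TGACG (a core of the cyclic AMP response element), ACGTG (the core of a hypoxia response element) or TATAAA.
Ptgs2, chr1:150099781-150100080: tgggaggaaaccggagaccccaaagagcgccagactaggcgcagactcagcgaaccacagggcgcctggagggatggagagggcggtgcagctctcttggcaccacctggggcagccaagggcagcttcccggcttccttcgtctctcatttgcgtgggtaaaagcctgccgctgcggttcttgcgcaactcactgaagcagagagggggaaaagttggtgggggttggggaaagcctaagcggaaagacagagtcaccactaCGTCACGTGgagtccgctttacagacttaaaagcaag
Ptger2, chr14:44987861-44988160: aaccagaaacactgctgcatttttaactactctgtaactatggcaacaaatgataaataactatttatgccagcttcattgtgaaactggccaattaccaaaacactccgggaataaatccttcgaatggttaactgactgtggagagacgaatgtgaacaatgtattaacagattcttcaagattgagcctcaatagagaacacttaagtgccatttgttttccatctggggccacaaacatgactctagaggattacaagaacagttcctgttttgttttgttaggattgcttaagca
Adora2b, chr11:62248734-62249033: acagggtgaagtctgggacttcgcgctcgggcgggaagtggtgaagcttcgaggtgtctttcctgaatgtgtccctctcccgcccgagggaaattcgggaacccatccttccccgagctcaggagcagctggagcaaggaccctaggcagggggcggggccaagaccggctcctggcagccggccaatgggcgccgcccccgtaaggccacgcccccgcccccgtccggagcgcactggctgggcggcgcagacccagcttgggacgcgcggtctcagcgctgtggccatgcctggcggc
Ptgs1, chr2:36230176-36230475: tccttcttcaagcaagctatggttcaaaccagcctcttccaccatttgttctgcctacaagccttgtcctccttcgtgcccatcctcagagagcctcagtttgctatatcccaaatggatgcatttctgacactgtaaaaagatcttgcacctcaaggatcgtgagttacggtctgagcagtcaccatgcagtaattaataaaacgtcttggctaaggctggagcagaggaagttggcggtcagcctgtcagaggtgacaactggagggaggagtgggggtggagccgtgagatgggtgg

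The Ptgs2 window was the only one of these 4 with a capital stretch, which lies at bases 14 to 22 counted from the start and holds overlapping matches to TGACG and ACGTG. The first of these was found in 20.8% and the second in 19.6% of 32851 promoter windows of the same length. Among the 9 members with a window, TGACG was also found at Entpd1, TATAAA was found at Hpgd alone (13.6% of all windows) and the full element TGACGTCA at none (1.79%). The windows shown differed in base composition, from 37.7% G and C at Ptger2 to 70.0% at Adora2b, with a median over all windows of 52.7%. These matches are a description of the letters in the windows.

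Library depth was 31810461 to 54008259 counts per tumor. Levels are given as CPM, the counts of a gene relative to the library's total after scaling by the trimmed mean of M-values (TMM). Differences are log2 fold changes with standard errors (SE) from edgeR's quasi-likelihood test over 48 tumors, and a gene was called at an adjusted p under 0.05 after Benjamini-Hochberg adjustment over all 19327 genes. The tumors of a group are labelled as separate samples, and the p-values rest on the spread between these samples. The spread of each gene was estimated jointly over all 8 groups. Comparisons within transplants therefore also carry the spread of the 32 primary tumors. Markers of leukocytes, endothelium, fibroblasts and skeletal muscle were present in every group, and skeletal muscle markers varied most, from 9.44 to 63318 summed CPM. Trp53, the gene targeted by Cre, was counted in both models and differed by 0.29 ± 0.11 (log2, SE, transplants against primary tumors; adjusted p = 0.029). A count over the whole gene does not test the deletion. The 2 single libraries of 402230 went against their labels. The library labelled as the parental primary tumor had 0 counts for all 5 T cell markers, and its 3 general leukocyte markers summed to 0.246 CPM (11 counts) where the lowest of the 48 tumors had 306 on the same scale of 50 libraries. The library labelled as the cell line had 273 CPM for the same leukocyte markers. Both are therefore named by their labels only, and no group comparison includes them except as an alternative that adds the library labelled parental to the untreated primary tumors. Since the markers of that library went against its label, this alternative may not add a primary tumor. A call lost there shows the weight of a single library.

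Among the 10 members, transplant tumors had higher Ptgs1, Ptgs2, Ptges and Ptger2 than primary tumors, and lower Adora2b and Ptger4. Averaged over the 4 treatments, 6 of the 10 members passed the test between the models, 4 higher and 2 lower in transplants, beside 34.8% of all genes tested (15.7% higher and 19.1% lower). The median difference over the 10 members was 0.43 on the log2 scale, beside -0.0025 over all genes. The plot of the members by group shows each library.

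**Figure D1:**
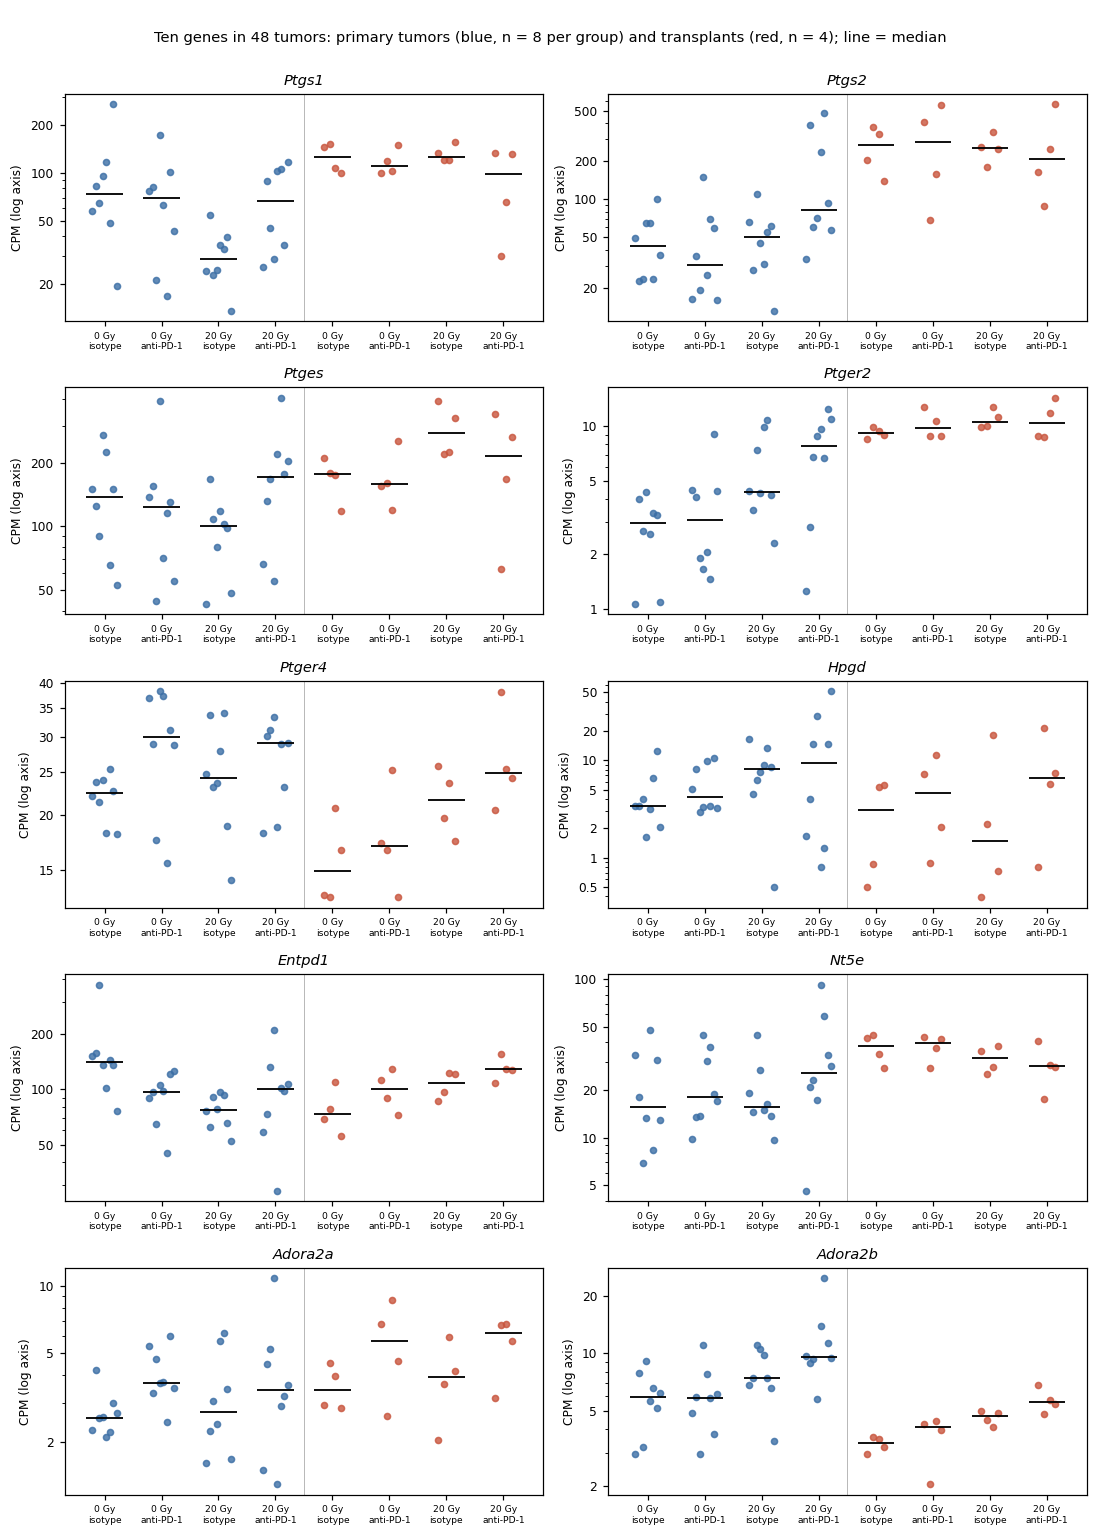
Level of each of the 10 genes in CPM (log axis) in the 8 groups of tumors, with 1 point per tumor and a line at the group median, for primary tumors (n = 8 per group) and transplant tumors (n = 4 per group). Ptgs2 and Ptger2 in transplants lie above the median of the 32 primary tumors in 16 of 16 tumors, and Adora2b lies below it in all 16.

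Ptgs2 (ENSMUSG00000032487.8, chr1:150100031-150108227, plus strand), the inducible cyclooxygenase, showed the largest difference of the members. Untreated transplants had 206.4, 371.4, 327.7 and 139.3 CPM. Untreated primary tumors had 22.7 CPM at the lowest, 43.0 at the median and 100 at the highest, so these groups did not overlap, which was the case for 7.23% of all genes. Over all treatments the level was 13.2 to 486 CPM (median 56.2) in primary tumors and 68.1 to 566 CPM (median 249) in transplants. The difference was 1.99 ± 0.30 (log2, SE; adjusted p = 1.46e-06), a 3.97-fold higher level, and it kept its call in 54 of 54 alternatives. Within single treatments it was 2.44 ± 0.60 in untreated tumors (adjusted p = 0.00649), 2.61 ± 0.60 with anti-PD-1 alone (adjusted p = 0.00483) and 2.33 ± 0.60 after 20 Gy with isotype (adjusted p = 0.0164). After 20 Gy with anti-PD-1 it was 0.59 ± 0.61 and did not pass (adjusted p = 0.585). With the library labelled parental added, the untreated difference was 0.86 and its call was lost (adjusted p = 0.489). The markers of that library went against its label. Without 20 Gy isotype transplant replicate 3 the difference at that treatment was 2.18 and its call was also lost (adjusted p = 0.0531).

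Ptgs1 (ENSMUSG00000047250.13, chr2:36230426-36252272, plus strand), the constitutive cyclooxygenase, was also higher in transplants, by 0.90 ± 0.24 (log2, SE; adjusted p = 0.00262). After 20 Gy with isotype, transplants had 133.1, 120.8, 120.2 and 155.8 CPM. Primary tumors of that treatment had 13.7 to 54.4 CPM with a median of 29.0, and the groups did not overlap. In untreated tumors the transplants had 145.8, 152.8, 107.8 and 100.0 CPM and the primary tumors 19.5 to 270 CPM with a median of 74.1, so the groups overlapped. The difference was 2.09 ± 0.47 after 20 Gy with isotype (adjusted p = 0.00544) and 0.42 ± 0.48 in untreated tumors (adjusted p = 0.626). It was 0.71 ± 0.48 with anti-PD-1 alone (adjusted p = 0.417) and 0.40 ± 0.48 after 20 Gy with anti-PD-1 (adjusted p = 0.649).

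Ptges (ENSMUSG00000050737.13, chr2:30889471-30929863, minus strand), the inducible microsomal prostaglandin E synthase, was higher in transplants by 0.61 ± 0.23 (log2, SE; adjusted p = 0.0352). Untreated transplants had 211.3, 179.3, 174.5 and 118.4 CPM, inside the range of untreated primary tumors, 52.6 to 272 CPM (median 137.3). After 20 Gy with isotype, transplants had 390, 221, 226 and 325 CPM, above all 8 primary tumors of that treatment, which had 43.0 to 167 CPM. That difference was 1.60 ± 0.45 (adjusted p = 0.0287), and it did not pass in 5 of 18 alternatives: without the low-count filter, without transplant replicate 1 or 4, or without primary replicate 1 or 8 of that treatment (adjusted p up to 0.095). In the other treatments the difference was 0.28 ± 0.46 (untreated), 0.32 ± 0.46 (anti-PD-1 alone) and 0.23 ± 0.46 (20 Gy with anti-PD-1), with adjusted p from 0.752 to 0.801. The averaged call rested on single libraries: without any of 5 transplants (untreated replicate 1, anti-PD-1 replicate 4, 20 Gy replicate 1, and replicates 1 and 4 of 20 Gy with anti-PD-1), or without the low-count filter, it did not pass, with adjusted p up to 0.0797. Per kilobase of exon, mean levels in transplants were 59.2 CPM for Ptgs2, 53.6 for Ptges and 30.1 for Ptgs1, and in primary tumors 17.8, 35.2 and 17.2 CPM.

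Ptger2 (ENSMUSG00000037759.6, chr14:44988195-45003820, plus strand) encodes the EP2 receptor. Untreated transplants had 8.52, 9.94, 9.43 and 9.01 CPM, and untreated primary tumors had 1.07 to 4.38 CPM with a median of 2.96, without overlap. All 16 transplants had 8.52 to 14.3 CPM, above the median of the 32 primary tumors, which ranged from 1.07 to 12.5 CPM. The difference was 1.17 ± 0.21 (log2, SE; adjusted p = 2.74e-05), or 2.25-fold, and was called in 54 of 54 alternatives. It was 1.72 ± 0.42 in untreated tumors (adjusted p = 0.00587) and 0.56 ± 0.43 after 20 Gy with anti-PD-1 (adjusted p = 0.442). With anti-PD-1 alone it was 1.49 ± 0.42 (adjusted p = 0.0215), which did not pass without transplant replicate 1 or 3 or in a fit of these groups alone (adjusted p up to 0.0992).

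Ptger4 (ENSMUSG00000039942.15, chr15:5206661-5244187, minus strand) encodes the EP4 receptor and differed in the other direction, by -0.34 ± 0.11 (log2, SE; adjusted p = 0.0149). Primary tumors had 14.2 to 38.2 CPM (median 24.4) and transplants 13.0 to 38.1 CPM (median 20.1), a nearly complete overlap. With anti-PD-1 alone transplants had 17.3, 16.6, 25.2 and 13.0 CPM and primary tumors 15.5 to 38.2 CPM, a difference of -0.70 ± 0.23 (adjusted p = 0.0468) that did not pass in 12 of 18 alternatives. Exons of Ptger4 share up to 1015 bases with a single partner, Ttc33 or Gm15937, on the opposite strand. Exons of Ptger2 share up to 246 bases with a single antisense gene, and exons of Ptgs1 share 148 bases with 1. The libraries were prepared with a stranded kit, but the strand setting of the counting is not given in the sources used here. Whether reads in the shared bases were counted for these genes is therefore not known. Per kilobase of exon, mean Ptger4 was above mean Ptger2 in primary tumors, 3.87 against 0.951 CPM, and in transplants, 3.11 against 1.99 CPM.

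Hpgd (ENSMUSG00000031613.9, chr8:56294585-56321043, plus strand), which degrades prostaglandin E2, was the most variable member. Untreated transplants had 0.501, 0.871, 5.34 and 5.56 CPM, and untreated primary tumors had 1.62 to 12.6 CPM with a median of 3.41. Over all treatments Hpgd ranged from 0.499 to 51.6 CPM in primary tumors and from 0.389 to 21.5 CPM in transplants. The difference between models was -0.52 ± 0.46 (log2, SE; adjusted p = 0.407), with a 95% confidence interval of -1.44 to 0.40.

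The adenosine enzymes did not pass the averaged test between models. Entpd1 (ENSMUSG00000048120.16, chr19:40612366-40741602, plus strand) differed by -0.02 ± 0.16 (log2, SE; adjusted p = 0.945, 95% confidence interval -0.34 to 0.30). In untreated tumors the transplants had 68.9, 78.3, 109.1 and 55.9 CPM and the primary tumors 75.8 to 372 CPM with a median of 140. That difference was -1.03 ± 0.34 (adjusted p = 0.0412), but it did not pass in 11 of 19 alternatives, and without untreated primary replicate 3, the tumor at 372 CPM, it was -0.72 (adjusted p = 0.133). It also did not pass without untreated primary replicate 1 or 2, or without untreated transplant replicate 1, 2 or 4. Nt5e (ENSMUSG00000032420.8, chr9:88327197-88372092, plus strand) had 17.6 to 44.2 CPM in transplants and 4.60 to 92.5 CPM in primary tumors, and 15 of 16 transplants lay above the primary median of 18.4 CPM. Its difference was 0.47 ± 0.24 (adjusted p = 0.124). Per kilobase of exon, Entpd1 was higher than Nt5e in both models, with means of 19.3 against 2.89 CPM in primary tumors and 18.7 against 3.91 CPM in transplants.

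Of the adenosine receptors, Adora2b was lower in transplants and Adora2a did not pass. Adora2b (ENSMUSG00000018500.2, chr11:62248984-62266453, plus strand) had 2.96, 3.62, 3.53 and 3.21 CPM in untreated transplants and 2.94 to 9.07 CPM (median 5.92) in untreated primary tumors. All 16 transplants, at 2.04 to 6.81 CPM, lay below the median of the primary tumors, 7.12 CPM. The difference was -0.84 ± 0.16 (log2, SE; adjusted p = 6.09e-05), a level 0.559 times that of primary tumors, and was called in 54 of 54 alternatives. Within single treatments it was called after 20 Gy with anti-PD-1, at -1.04 ± 0.32 (adjusted p = 0.0419), and that call was lost in 10 of 18 alternatives. Adora2a (ENSMUSG00000020178.6, chr10:75316877-75334784, plus strand) had 1.29 to 10.9 CPM in primary tumors and 2.04 to 8.66 CPM in transplants, with a difference of 0.39 ± 0.19 (adjusted p = 0.112). Per kilobase of exon, mean Adora2b was 4.26 CPM in primary tumors and 2.34 in transplants, and mean Adora2a was 1.16 and 1.53 CPM.

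**Figure D2:**
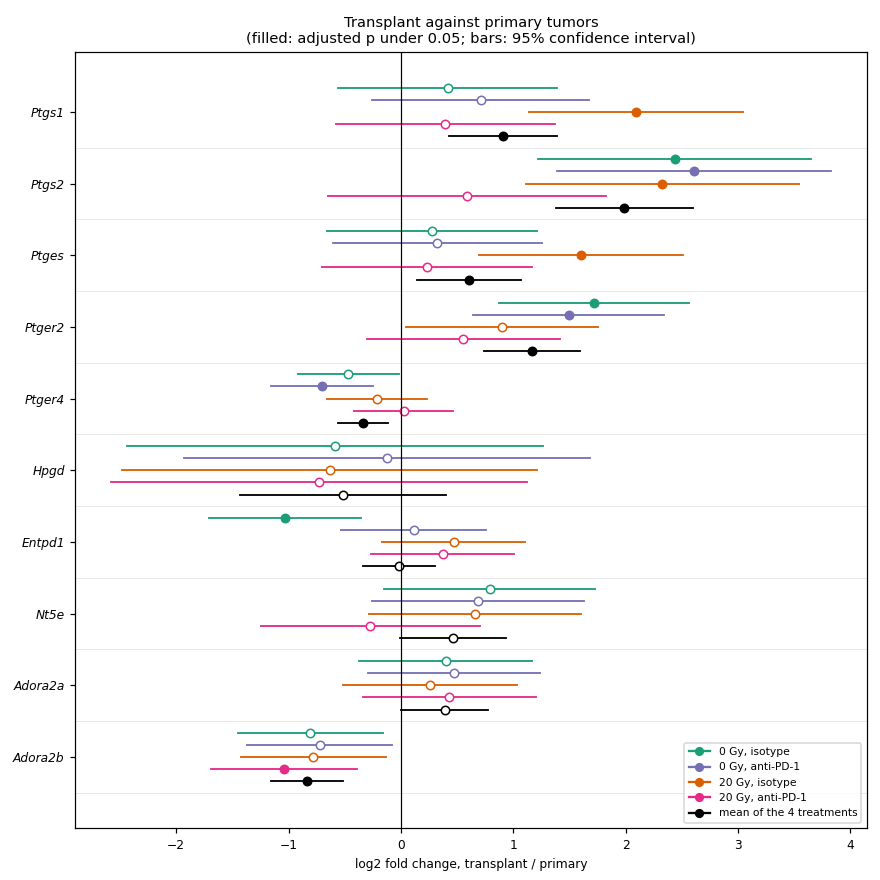
Difference between transplant and primary tumors for the 10 genes as log2 fold change with 95% confidence intervals, averaged over the 4 treatments and within each treatment; filled points had an adjusted p under 0.05. Ptgs2 reached 1.99 in the average and 0.59 after 20 Gy with anti-PD-1, and Adora2b was below 0 in every treatment.

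Counted by treatment, 3 members were called between the models in untreated tumors (Ptgs2, Ptger2 and Entpd1, beside 10.3% of all genes), 3 with anti-PD-1 alone (Ptgs2, Ptger2 and Ptger4, beside 7.35%), 3 after 20 Gy with isotype (Ptgs1, Ptgs2 and Ptges, beside 4.87%) and 1 after 20 Gy with anti-PD-1 (Adora2b, beside 6.76%). The groups did not overlap for Ptgs1, Ptgs2 and Ptges after 20 Gy with isotype, beside 5.58% of all genes. No member separated the models with anti-PD-1 alone (5.98% of all genes did), after 20 Gy with anti-PD-1 (2.29%), or with all treatments pooled (0.0673%). No member passed the test of whether the radiation effect differed between the models (0.0259% of all genes did), or whether the anti-PD-1 effect did (0 genes). Such differences for radiation were, for example, Ptgs2 at -1.07 ± 0.63 (log2, SE; adjusted p = 0.661) and Entpd1 at 0.88 ± 0.32 (adjusted p = 0.362).

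Cell type markers differed between the models as well. T cell markers summed to 36.3 to 174 CPM (median 73.1) in transplants and 3.89 to 208 CPM (median 27.7) in primary tumors, with 4 of 5 genes called higher. General leukocyte markers summed to 341 to 1748 CPM (median 936) and 316 to 1458 CPM (median 545), with 2 of 3 called higher, and monocyte markers had 3 of 4 called higher. Fibroblast markers were lower, 836 to 1715 CPM (median 1275) in transplants and 648 to 5064 CPM (median 2214) in primary tumors, with 4 of 5 called. Mast cell markers were lower in 4 of 7 genes, with medians of 52.7 CPM in transplants and 106.8 CPM in primary tumors, and platelet markers in 2 of the 4 tested, with medians of 17.6 and 39.1 CPM. Over all genes 15.7% were called higher and 19.1% lower. Mixed directions were seen for natural killer cell markers (1 higher and 1 lower of 4) and smooth muscle markers (1 higher and 2 lower of 4). No marker of these lists was at 0 throughout a group. Their part in the differences of the 10 genes was not tested, and in bulk tissue fewer cells of a type and less RNA per cell cannot be told apart.

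In primary tumors, 20 Gy was followed by lower Ptgs1 and by higher Ptger2, Adora2b and Ptgs2. Averaged over both antibodies, 4 of the 10 members were called, 3 higher and 1 lower, beside 31.0% of all genes (16.8% higher and 14.2% lower). The median difference of the members was 0.20 on the log2 scale, beside 0.0037 over all genes.

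Ptger2 rose after 20 Gy in primary tumors by 1.05 ± 0.25 (log2, SE; adjusted p = 0.00162) and was called in 39 of 39 alternatives. With isotype it was 1.07 to 4.38 CPM (median 2.96) at 0 Gy and 2.31 to 10.8 CPM (median 4.38) at 20 Gy. With anti-PD-1 it was 1.46 to 9.03 CPM (median 3.08) at 0 Gy and 1.26 to 12.5 CPM (median 7.85) at 20 Gy. The groups overlapped for both antibodies. Within isotype the difference was 1.07 ± 0.36 (adjusted p = 0.0331), and it did not pass in 9 of 23 alternatives, which included leaving out 0 Gy replicate 1, 5 or 8 or 20 Gy replicate 3, 5 or 6 (adjusted p up to 0.0899). Within anti-PD-1 it was 1.03 ± 0.36 (adjusted p = 0.0554).

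Adora2b rose by 0.69 ± 0.18 (log2, SE; adjusted p = 0.00276) and was also called in 39 of 39 alternatives. With anti-PD-1 it was 2.95 to 11.1 CPM (median 5.85) at 0 Gy and 5.77 to 25.0 CPM (median 9.57) at 20 Gy, a difference of 0.95 ± 0.25 (adjusted p = 0.0111). With isotype it was 2.94 to 9.07 CPM at 0 Gy and 3.47 to 11.1 CPM at 20 Gy, a difference of 0.44 ± 0.25 (adjusted p = 0.228).

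Ptgs1 fell by 0.84 ± 0.29 on the log2 scale (adjusted p = 0.022). With isotype the level was 19.5 to 270 CPM (median 74.1) at 0 Gy and 13.7 to 54.4 CPM (median 29.0) at 20 Gy. The difference with isotype was -1.61 ± 0.41 (adjusted p = 0.00471) and was called in 23 of 23 alternatives. With anti-PD-1 it was 16.9 to 173 CPM (median 70.1) at 0 Gy and 25.7 to 116.5 CPM (median 67.1) at 20 Gy, a difference of -0.07 ± 0.40 (adjusted p = 0.939). The averaged call did not pass with limma voom, in a fit of these groups alone, or without untreated replicate 7 or 0 Gy anti-PD-1 replicate 4, with adjusted p up to 0.0976.

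Ptgs2 rose by 0.98 ± 0.36 (log2, SE; adjusted p = 0.0375) in the average, with the higher values among tumors given anti-PD-1. In that antibody group it was 15.9 to 151.1 CPM (median 30.5) at 0 Gy, and at 20 Gy it was 33.5, 386, 60.5, 71.2, 237, 486, 93.3 and 57.3 CPM. At 20 Gy, 3 of 8 tumors were above every primary tumor of the other 3 treatments. The difference was 1.86 ± 0.53 (adjusted p = 0.0172), and without replicate 6, the tumor at 486 CPM, it was 1.46 (adjusted p = 0.0588). With isotype the level was 22.7 to 100 CPM at 0 Gy and 13.2 to 110 CPM at 20 Gy, a difference of 0.09 ± 0.51 (adjusted p = 0.922). The averaged call was lost in 13 of 39 alternatives, with adjusted p up to 0.765. This highest value came from adding the library labelled parental (difference 0.20), whose markers went against its label. Among single tumors, leaving out 0 Gy isotype replicate 2 or 3, 0 Gy anti-PD-1 replicate 1, 3, 5 or 8, 20 Gy isotype replicate 3, or 20 Gy anti-PD-1 replicate 2 or 6 ended it.

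Entpd1 was called after 20 Gy with isotype, at -1.05 ± 0.26 (log2, SE; adjusted p = 0.00424). It was 75.8 to 372 CPM (median 140) at 0 Gy and 52.3 to 96.2 CPM (median 77.4) at 20 Gy. Without replicate 3 of the 0 Gy group the difference was -0.71 (adjusted p = 0.0431), and with the library labelled parental added it was -0.86 (adjusted p = 0.0793). With anti-PD-1 the difference was 0.12 ± 0.26 (adjusted p = 0.826). Ptgs1, Entpd1 and Ptger2 were the 3 members called with isotype, beside 18.3% of all genes, and Ptgs2 and Adora2b were the 2 called with anti-PD-1, beside 11.2%.

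A test of whether the radiation effect differed between the antibodies in primary tumors called no member and 0 genes in all. At an unadjusted p under 0.05 it had 3 members, Entpd1 at 1.17 ± 0.37 (log2, SE; adjusted p = 0.609), Ptgs1 at 1.54 ± 0.57 (adjusted p = 0.699) and Ptgs2 at 1.77 ± 0.73 (adjusted p = 0.762). The remaining 4 members, Ptges, Ptger4, Nt5e and Adora2a, had averaged radiation differences in primary tumors from -0.09 to 0.24, and Hpgd had 1.09 ± 0.52 (adjusted p = 0.106).

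In primary tumors no member had groups without overlap between the doses, with isotype (1.86% of all genes), with anti-PD-1 (0.398%) or pooled (0.0466%).

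**Figure D3:**
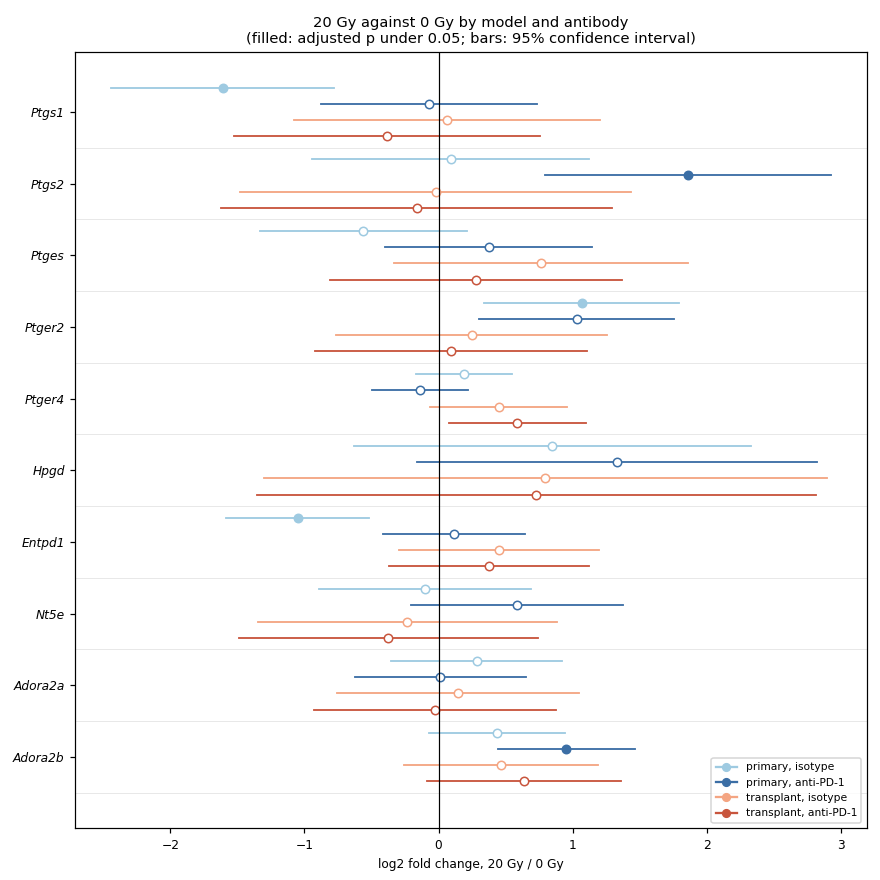
Radiation differences (20 Gy against 0 Gy) of the 10 genes as log2 fold change with 95% confidence intervals, in primary and transplant tumors given isotype or anti-PD-1; filled points had an adjusted p under 0.05. Filled points are found only for primary tumors: Ptgs1, Entpd1 and Ptger2 with isotype, Ptgs2 and Adora2b with anti-PD-1.

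In transplants no member was called after 20 Gy, beside 7.23% of all genes, and 2 had an unadjusted p under 0.05 in edgeR. Ptger4 was 13.2, 13.0, 20.7 and 16.6 CPM at 0 Gy and 25.8, 19.6, 23.7 and 17.5 CPM at 20 Gy with isotype. With anti-PD-1 it was 17.3, 16.6, 25.2 and 13.0 CPM at 0 Gy and 20.5, 38.1, 25.4 and 24.3 CPM at 20 Gy. Its difference was 0.52 ± 0.18 (log2, SE; adjusted p = 0.0699). Adora2b was 2.96, 3.62, 3.53 and 3.21 CPM at 0 Gy and 4.96, 4.45, 4.11 and 4.86 CPM at 20 Gy with isotype. With anti-PD-1 it was 4.25, 2.04, 4.40 and 3.93 CPM at 0 Gy and 6.81, 4.78, 5.70 and 5.43 CPM at 20 Gy. The groups did not overlap for either antibody, and the averaged difference was 0.55 ± 0.25 (adjusted p = 0.209). The spread behind this SE was shared with primary tumors. The within-group SD of log2 CPM of Adora2b was 0.57 in primary tumors and 0.29 in transplants. A fit of the transplant groups alone called Ptger4 and Adora2b. Groups without overlap were also seen for Ptges with isotype, 211.3, 179.3, 174.5 and 118.4 CPM against 390, 221, 226 and 325 CPM. Such non-overlap was common, at 13.5% of all genes with isotype and 8.87% with anti-PD-1. With both antibodies pooled no member separated the doses, beside 3.75% of all genes.

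In the single-antibody comparisons of 20 Gy in transplants, 0 members were called beside 1.92% of all genes with isotype and 0.595% with anti-PD-1. The difference between the models in the radiation effect was also tested within each antibody. With isotype it was largest for Ptgs1 (1.68, adjusted p = 0.48) and Entpd1 (1.5, adjusted p = 0.455) and called 0 members, beside 0.00517% of all genes. With anti-PD-1 it was -2.02 for Ptgs2 (adjusted p = 0.986) and called 0 members.

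General leukocyte markers rose with radiation in both models, while lists of single leukocyte types differed. In primary tumors given isotype, general leukocyte markers summed to 328 to 497 CPM (median 414) at 0 Gy and 585 to 1196 CPM (median 766) at 20 Gy. In the average over antibodies, 3 of 3 of these genes were called higher in each model. In primary tumors monocyte markers had 4 of 4 and neutrophil markers 5 of 6 called higher, and skeletal muscle markers 4 of 5. Macrophage markers had 5 of 7 called higher in primary tumors and 4 of 7 in transplants, natural killer cell markers 3 of 4 in primary tumors, and mast cell markers 2 of 7 called lower in primary tumors. T cell, B cell and dendritic cell markers had 0 called in either model. In transplants 1 of 4 monocyte, 1 of 6 neutrophil and 0 of 4 natural killer cell markers were called higher. Over all genes, 16.8% were called higher and 14.2% lower in primary tumors, and 7.23% in either direction in transplants. With isotype, monocyte markers went from 89.6 to 498 CPM at 0 Gy to 236 to 2080 CPM at 20 Gy. The part of these cell types in the radiation differences was not tested, apart from a fit with skeletal muscle markers as a covariate, in which 1 member (Ptger4) was called in transplants.

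No member was called for anti-PD-1 against isotype in either model. In primary tumors, averaged over doses, 0 members were called in edgeR, beside 0.0155% of all genes, and 2 had an unadjusted p under 0.05, Ptgs2 at 0.91 ± 0.36 (log2, SE; adjusted p = 0.639) and Adora2a at 0.46 ± 0.22 (adjusted p = 0.719). In transplants 0 members and 0 genes were called, and 0 members had an unadjusted p under 0.05. The widest interval for a member in transplants was that of Hpgd, -0.71 to 2.24 on the log2 scale, and the narrowest was that of Ptger4, -0.11 to 0.61.

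Tumors given 20 Gy with anti-PD-1 were also compared with untreated tumors of the same model. In primary tumors 3 members were called, all higher, beside 18.8% of all genes: Ptgs2 by 1.89 ± 0.53 (log2, SE; adjusted p = 0.0104), Ptger2 by 1.41 ± 0.36 (adjusted p = 0.00544) and Adora2b by 1.0 ± 0.25 (adjusted p = 0.00471). With the library labelled parental, whose markers went against its label, added to the untreated group the Ptgs2 difference was 0.32 (adjusted p = 0.737). In transplants 0 members were called, beside 4.41% of all genes. The groups of this comparison did not overlap for Adora2b in transplants, beside 13.3% of all genes, and overlapped for all members in primary tumors, beside 0.559%. These comparisons share their untreated tumors with those of 20 Gy and of the models.

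The order of the 8 group means differed from gene to gene. Ptgs2 was highest in the 4 transplant groups (257 to 299 CPM), followed by primary tumors given 20 Gy with anti-PD-1 (178 CPM) and the other 3 primary groups (48.2 to 51.4 CPM). Ptger2 had the same split, with 9.23 to 11.0 CPM in transplants and 2.80 to 7.45 CPM in primary groups. Adora2b had the reverse one, 5.83 to 11.7 CPM in primary groups and 3.33 to 5.68 CPM in transplants. Entpd1 was highest in untreated primary tumors (159 CPM) and lowest in primary tumors given 20 Gy with isotype (77.0 CPM). For every member, each group overlapped the next in the order.

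The members also differed in how much they varied among tumors of the same group. The within-group SD of log2 CPM in primary tumors was 1.47 for Hpgd, 1.11 for Ptgs2, 0.96 for Ptgs1 and Nt5e, and 0.38 for Ptger4. In transplants, which share 1 line, it was lower for 9 of the 10, for example 0.23 for Ptger2 (0.90 in primary tumors) and 0.36 for Nt5e, and higher for Hpgd, at 1.94. Between-group differences made up 58.3% of the variance of Ptgs2, 55.2% of Ptger2 and 54.7% of Adora2b, and 13.4% of Hpgd. These shares are not corrected for the 8 group means fitted to 48 tumors, and would lie above 0 without any group difference. The low share of Hpgd is therefore no sign of one.

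The library labelled as the parental primary tumor of line 402230 had 876 CPM of Ptgs2 (39221 counts), above all 48 tumors, and 238 CPM of Ptgs1. The values of the 2 single libraries were scaled together with the 48 tumors. The library labelled cell line had 286 CPM of Ptgs2 and 121.95 CPM of Ptgs1, inside the range of the transplants. The receptors went the other way, with Ptger2 at 1.01 CPM (45 counts) in the library labelled parental and 11.1 CPM in the one labelled cell line, and Adora2a at 0.0670 CPM (3 counts) and 2.08 CPM. Entpd1 was 3.60 and 67.8 CPM, Nt5e 2.86 and 56.9 CPM, and Hpgd 0.0447 (2 counts) and 3.90 CPM. Ptges was 103.6 and 203 CPM, Ptger4 8.07 and 10.3 CPM, and Adora2b 1.5 and 2.30 CPM. With 1 library each, these differences have no replicate check.

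**Figure D4:**
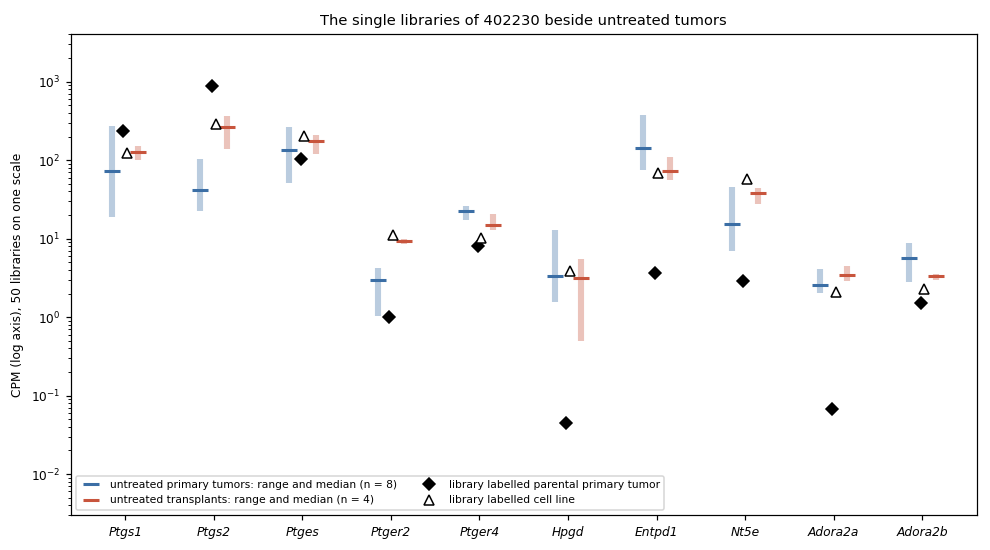
Level of the 10 genes in CPM (log axis, 50 libraries on 1 scale) in the library labelled parental primary tumor (diamonds) and the library labelled cell line (triangles), beside the range and median of untreated primary tumors (n = 8) and untreated transplants (n = 4). The diamond lies above both ranges for Ptgs2, at 876 CPM, and below both for Ptger2, Ptger4, Hpgd, Entpd1, Nt5e, Adora2a and Adora2b.

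Other genes of the pathways were taken as 2 lists, 18 prostanoid genes and 17 nucleotide and adenosine genes, of which 16 each passed the filter. Between the models 3 of the 16 prostanoid genes were higher and 6 lower in transplants, beside 15.7% and 19.1% of all genes. Ptgis, the prostacyclin synthase, was 4.35 to 312 CPM (median 53.9) in primary tumors and 2.05 to 25.0 CPM (median 11.9) in transplants, a difference of -2.86 ± 0.43 (log2, SE; adjusted p = 1.26e-06). Ptgir, the prostacyclin receptor, was 2.42 to 65.8 CPM and 3.25 to 9.95 CPM, a difference of -1.57 ± 0.27. Lower values were also found for Ptger3, the EP3 receptor (-2.05 ± 0.40), and Slco2a1, the prostaglandin uptake transporter (-1.25 ± 0.29). Of the other prostaglandin E synthase genes, Ptges3 was among the 6 called lower in transplants, unlike the member Ptges, and Ptges2 was not called. Higher were Abcc4, which exports prostaglandins (0.98 ± 0.14), Pla2g4a, the phospholipase that releases arachidonic acid (0.43 ± 0.13), and Ptgdr2, at no more than 0.580 CPM in any tumor. After 20 Gy in primary tumors 2 of 16 were higher, Ptgdr2 and Abcc4 (0.54 ± 0.16), and 0 lower, beside 16.8% and 14.2% of all genes. In transplants 0 were called, beside 7.23%.

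Of the 16 nucleotide and adenosine genes 5 were higher and 3 lower in transplants, beside the same 15.7% and 19.1% of all genes. Enpp1, which hydrolyses extracellular ATP to AMP, was 20.0 to 434 CPM (median 130) in primary tumors and 13.4 to 93.5 CPM (median 30.6) in transplants, a difference of -1.97 ± 0.28 (log2, SE; adjusted p = 4.79e-07). Cd38 and Bst1, which cleave NAD, were higher by 0.77 ± 0.18 and 1.36 ± 0.19, as were the A3 receptor Adora3 (0.75 ± 0.27) and Dpp4 (0.73 ± 0.27). Slc29a1, an adenosine transporter, and Adk, the adenosine kinase, were lower by small amounts (-0.50 ± 0.16 and -0.27 ± 0.09). After 20 Gy in primary tumors 6 of 16 were higher and 1 lower, beside 16.8% and 14.2% of all genes. Bst1 went from 5.21 to 20.5 CPM at 0 Gy to 15 to 88.8 CPM at 20 Gy, a difference of 2.07 ± 0.23 (adjusted p = 1.1e-08), followed by Entpd3 (1.80 ± 0.59), Cd38 (1.03 ± 0.21) and Adora3 (0.87 ± 0.32). Levels of Entpd3 and Adora3 were low, with medians of 0.629 and 0.837 CPM over all primary tumors on the scale of 50 libraries. Adk was the gene that fell, from 48.1 to 93.3 CPM at 0 Gy to 29.7 to 70.1 CPM at 20 Gy (-0.54 ± 0.10, adjusted p = 7.42e-05). In transplants Adk also fell (-0.51 ± 0.14), as did Enpp1 (-1.43 ± 0.42), and P2rx7, an ATP-gated channel, rose (0.78 ± 0.20), 3 of 16 beside 7.23% of all genes.

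**Figure D5:**
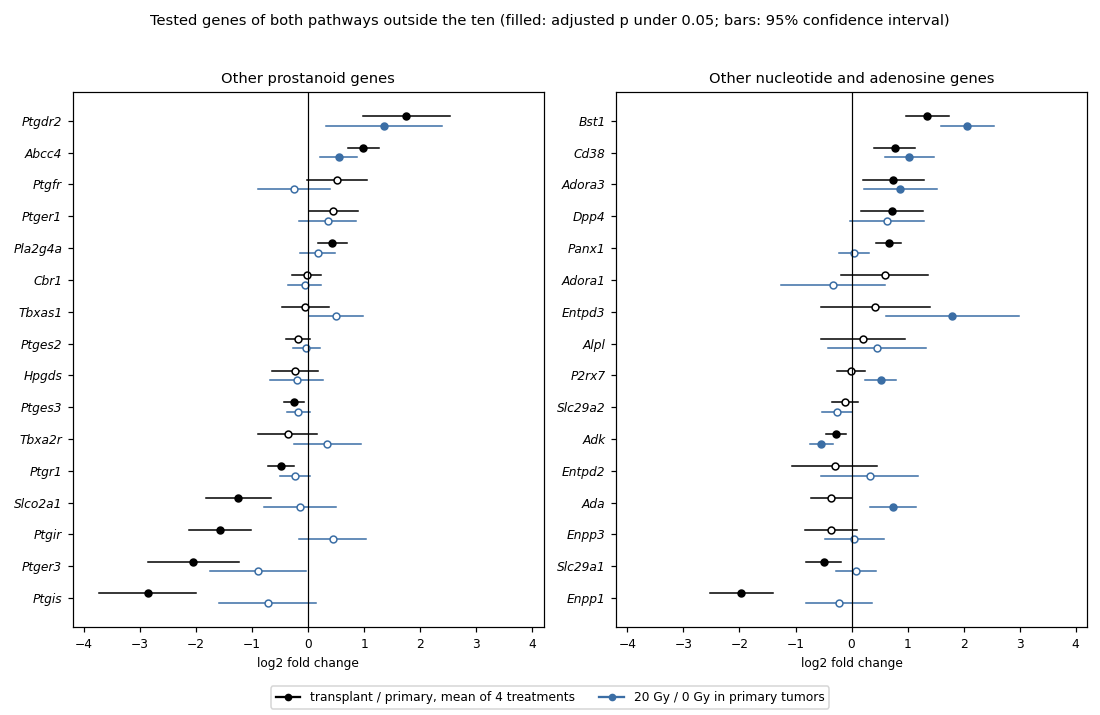
Differences of the 16 tested prostanoid genes and the 16 tested nucleotide and adenosine genes outside the 10 members, as log2 fold change with 95% confidence intervals, for transplant against primary tumors (black) and for 20 Gy against 0 Gy in primary tumors (blue). Ptgis at -2.86 and Enpp1 at -1.97 lie lowest for the models, and Bst1 at 2.07 lies highest for radiation.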

How the data were processed

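RNA from 48 sarcomas and 2 libraries of line 402230 was sequenced after poly(A) selection. The values used are raw counts per gene as deposited by the authors. According to the labels, the reads had been trimmed with Trimmomatic 0.36, aligned to mm10 with STAR (version 5.5.4b in the submitters' processing notes) and counted with HTSeq on GENCODE M17. Symbols came from GENCODE M21 for 37408 of 37469 identifiers. Counts were tested in edgeR 4.0.16 (R 4.3.3), with TMM scaling, filterByExpr, robust quasi-likelihood fits with a mean for each of the 8 groups, and Benjamini-Hochberg adjustment over 19327 genes. The 20 contrasts included 3 tests of differences in the radiation effect that were chosen after seeing the data. The fit was tested on simulated data. Alternatives were size factors by relative log expression, no filter, DESeq2 1.42.0, voom in limma 3.58.1, a muscle marker covariate, only the compared groups, the added library labelled parental, and leaving out each tumor in turn. Promoter sequences came from RefSeq (GRCm38.p6). The 10 members and all gene and marker lists were chosen with earlier results of these data known. Named pathway genes were the up to 4 called genes with the largest change per direction and list. Ptges2 and Ptges3 were named in addition, as prostaglandin E synthase genes. Replicate numbers follow sample order only. Counting error is small at 31810461 to 54008259 counts per tumor for all members except the few lowest values. The deposited table was used whole, and its columns matched the labels.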

Additional observations from a re-analysis of the deposited data

Results flagged for a closer look

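In each group the highest and lowest tumor was compared with the rest by the gap to its neighbor over the group's range. Of 80 groups (10 genes in 8 groups), 4 held a tumor beyond Dixon's 95% limit, and chance flags about 1 in 20. Hpgd was 0.499 CPM in replicate 8 of primary tumors given 20 Gy with isotype, where the other 7 had 4.54 to 16.5 CPM. Adora2b was also lowest in that tumor, at 3.47 CPM against 6.58 to 11.1 CPM. Entpd1 was 372 CPM in replicate 3 of untreated primary tumors, where the others had 75.8 to 157 CPM. Adora2b was 2.04 CPM in replicate 2 of transplants given anti-PD-1 alone, where the others had 3.93 to 4.40 CPM.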

How the results depend on the processing

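The 28 differences of single members that were called were refitted under every alternative that applies to them, and 0 of these reversed direction. Differences that were not called were not followed gene by gene. No paired analysis was possible because the replicate numbers follow sample order and pair no tumors. With the library labelled parental added, 1 member (Ptger2) was called between models in untreated tumors instead of 3, since Ptgs2 and Entpd1 were lost. The markers of that library went against its label, so it may not stand for a primary tumor. With a fit of the compared groups alone the calls were 1 instead of 3 between models with anti-PD-1 alone, 0 instead of 1 between models after 20 Gy with anti-PD-1, 2 instead of 4 for radiation in primary tumors, 2 (Ptger4 and Adora2b) instead of 0 for radiation in transplants, and 0 instead of 2 for radiation in primary tumors given anti-PD-1. Also lost in this fit were the calls of Entpd1 between models in untreated tumors (adjusted p = 0.0976) and of Ptger2 for radiation in primary tumors given isotype (adjusted p = 0.0524). This fit has fewer samples to estimate the spread, and it takes the spread from the compared groups only. The within-group SD of log2 CPM in transplants and primary tumors was 0.29 and 0.57 for Adora2b, and 0.34 and 0.38 for Ptger4. The model comparison after 20 Gy with anti-PD-1 also called 0 without the low-count filter, and 0 with the muscle covariate, which called 1 for radiation in transplants. limma voom called 2 for radiation in primary tumors. The cause of these changes was not tested. Leaving out each tumor in turn gave 5 to 7 calls (6 with all tumors) between the models on average, 2 to 3 (3) in untreated tumors, 1 to 3 (3) with anti-PD-1 alone, 2 to 3 (3) after 20 Gy and 0 to 1 (1) after 20 Gy with anti-PD-1. For radiation in primary tumors it gave 3 to 5 calls (4) on average, 2 to 3 (3) with isotype and 1 to 3 (2) with anti-PD-1, and 0 to 1 (0) in transplants. For the combination it gave 3 to 4 (3) in primary tumors and 0 to 1 (0) in transplants. The other contrasts called 0 members in each of these fits. The model comparison with anti-PD-1 alone fell to 1 without transplant replicate 1, that after 20 Gy with anti-PD-1 to 0 without any of transplant replicates 1 to 4 or primary replicates 5, 6 or 8, and radiation in transplants rose to 1 without 0 Gy isotype replicate 3, 0 Gy anti-PD-1 replicate 3 or 20 Gy anti-PD-1 replicate 1. The counts over all genes also moved, between the models from 1988 with all tumors to between 1009 and 2248 in untreated tumors, from 1421 to between 627 and 1516 with anti-PD-1 alone, from 942 to between 350 and 917 after 20 Gy and from 1307 to between 154 and 2353 after 20 Gy with anti-PD-1. Depth does not limit the members except at a few counts, and 4 transplants per group limit the precision.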

Other observations

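For each member the genes whose log2 CPM followed it most closely across the 48 tumors, after the 8 group means were removed, are given as a description. The points share libraries and the tumors' cell makeup, and no test was made. Among the members themselves the highest Pearson correlations were those of Ptgs1 with Ptges (0.76), Ptgs2 with Nt5e (0.65), Entpd1 with Adora2a (0.63) and Hpgd with Adora2a (0.61).

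Ptgs1 was closest to Tspan11 (0.80) and to Ahr (0.79), the aryl hydrocarbon receptor, and then to Ptges. Ptgs2 was closest to Stc1 (0.76), to Ptgs2os2 (0.74), a long noncoding RNA gene of the same chromosome that does not overlap it, and to Nr4a2 (0.74). Ptges was closest to Upp1, Mmp3 and Ctsl (0.77 each). Ptger2 was closest to Il18rap (0.70) and Tigit (0.67), genes known from activated lymphocytes, and St6galnac2 (0.65). The correlation with St6galnac2 was 0.77 within primary tumors and -0.20 within transplants. Ptger4 was closest to Rtl5 (0.77), Irak3 (0.73) and Arap1 (0.71). Hpgd was closest to Ppfibp2 (0.80), Ggt5 (0.77) and Gpr146 (0.77). Entpd1 was closest to Atp8a1 (0.86), Rassf2 (0.77) and Orai1 (0.77). Nt5e was closest to Fam110c (0.70), Slc39a14 (0.68) and Ptgs2os2 (0.67). The correlation with Slc39a14 was 0.73 within primary tumors and 0.19 within transplants. Adora2a was closest to Ppp1r16b (0.89), Gimap1 (0.89) and Il27ra (0.85). Adora2b was closest to Ptgs2os2 (0.67), Glrx (0.66) and Il33 (0.66).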
